A study of Mus musculus with 21 samples.

Results

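Single epiblasts of the mouse embryo, the tissue from which the whole body of the embryo later forms, were compared between embryonic day 6.0 (E6.0) and embryonic day 5.0 (E5.0). The comparison took 3 epiblasts at E6.0 (embryos 1, 2 and 3) and 3 at E5.0 (embryos 1, 2 and 4), which are 6 of the 21 samples of the study. A further 3 epiblasts at E5.5 (embryos 1, 2 and 3) served only to place each change in time. The study set embryonic epiblast beside cultured pluripotent cells, and the cultured samples are not used here. Each sample is labelled as a single epiblast. No strain, litter, genotype or treatment is given for them. Titles give the oldest group as E6.0 and the field for cell type as day 6.5, and it is called E6.0 here. Every result below therefore compares embryos about 1 day apart by title, and the true interval is uncertain.

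Between implantation and gastrulation the epiblast changes from a small ball of cells into a polarised epithelium around a cavity. Cells leave the naive state of pluripotency, in which factors such as Zfp42 (REX1) and Tfcp2l1 are made, and pass through a formative state before the first cells enter the primitive streak. Genome-wide DNA methylation is restored in this window by de novo methyltransferases. NODAL, WNT, FGF and BMP signals, exchanged with the neighbouring visceral endoderm and extraembryonic ectoderm, prepare the tissue for patterning.

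The E5.0 libraries held 5827093 to 9391906 counts, the E5.5 libraries 9510145 to 11740260 and the E6.0 libraries 7847469 to 13006656. Reads of the mitochondrial genome took 8.15% to 8.95% of the counts at E5.0 and 7.03% to 7.36% at E6.0. The epiblast marker Pou5f1 (OCT4) was at 513 to 656 CPM (CPM, the count scaled to library size with TMM normalisation) in the 6 embryos compared. Markers of visceral endoderm, the layer that wraps the epiblast, differed between the stages. The 18 genes of that list summed to 1585, 1900 and 781 CPM in E5.0 embryos 1, 2 and 4, to 384 to 425 CPM at E5.5 and to 277 to 329 CPM at E6.0. Of its 14 tested genes, 11 were lower at E6.0 (78.6%) and none was higher, against 10.2% higher and 11.6% lower over all genes. The median log2 change was -3.99 against -0.0215 over all genes. For this list and for the extraembryonic ectoderm, naive, sterol, ATF4 and histone lists below, a direction with no call by edgeR also had 0 genes at an unadjusted p under 0.05 and 0 by DESeq2's Wald test. Extraembryonic ectoderm markers summed to 53.6 to 136 CPM at E5.0 and 69.9 to 182 CPM at E6.0, but most of this was Eomes, which the epiblast and streak also make. Without Eomes, a sum taken after the data were seen, the list was at 18.8, 61.5 and 12.99 CPM in E5.0 embryos 1, 2 and 4 and at 7.56, 13.5 and 6.32 CPM in E6.0 embryos 1, 2 and 3. The stages overlapped only through E5.0 embryo 4 and E6.0 embryo 2. Of the 7 tested genes of the list 1, Tead4, was lower (14.3%, near the 11.6% over all genes) and none was higher. The median log2 change was -1.22, between -1.46 and -0.75 without single embryos. Tead4 differed by -2.90 ± 0.70 (adjusted p 0.00956), by -3.88 without E6.0 embryo 2, and by -1.84 without E5.0 embryo 2, where the call was lost (adjusted p 0.0589). Elf5 and Hand1 stood at 7.27 and 6.73 CPM in E5.0 embryo 2 against at most 1.10 CPM in each of the other 5 embryos. Maternal decidua and blood markers summed to 19.5 to 24.0 CPM at E5.0 and 6.42 to 7.58 CPM at E6.0. The haemoglobin gene Hba-a1 was at 5.62 CPM in E5.0 embryo 4, and Prl8a2, Prl3c1, Hbb-bs and Hbb-bt were not analysed here. The part of these other tissues in the results below was not tested. In whole epiblasts, fewer cells of a type and less RNA per cell cannot be told apart. Transcripts of 4 Y-linked genes were at 16 to 70.3 CPM in E5.0 embryo 2, E5.5 embryos 1 and 2 and E6.0 embryo 1, so 1 of 3 embryos at both compared stages had them. E5.0 embryo 2 also had 54.0 CPM of Xist, the RNA of X inactivation, against 785 and 595 CPM in the other E5.0 embryos. Whether that library holds RNA of 1 embryo alone was not tested.

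**Figure D1:**
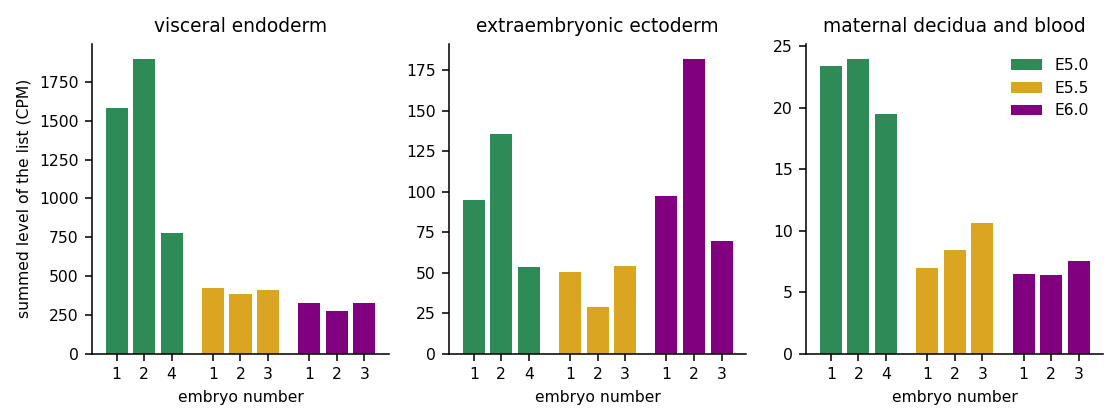
Summed level (CPM, linear axis from 0) of the marker lists for visceral endoderm, extraembryonic ectoderm and maternal decidua and blood, 1 bar per embryo, coloured by stage. Visceral endoderm markers sum to 781 to 1900 CPM in the 3 E5.0 embryos and to at most 329 CPM in the 3 E6.0 embryos, while the extraembryonic ectoderm sums, most of which is Eomes, overlap between these stages.

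Of 14228 genes tested, 3100 changed between E5.0 and E6.0 at an adjusted p under 0.05 (two-sided quasi-likelihood F-test of edgeR with Benjamini-Hochberg adjustment), which is 21.8%. There were 1445 genes higher at E6.0 (10.2%) and 1655 lower (11.6%). Changes of at least 2-fold made up 1794 of the calls, 12.6% of the genes tested, with 695 higher (4.88%) and 1099 lower (7.72%). The median log2 change was 0.96 among the risers and -1.44 among the fallers. In 2829 genes (19.9% of those tested) all 3 E6.0 embryos lay above all 3 E5.0 embryos, and in 2662 (18.7%) all lay below, 38.6% together. Among the fits without a single embryo the count was lowest when an E6.0 embryo was left out, at 1905 without embryo 2, 2010 without embryo 3 and 2122 without embryo 1. The calls that held in the full fit and in all 9 fits without a single embryo numbered 1586, with 754 higher and 832 lower.

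**Figure D2:**
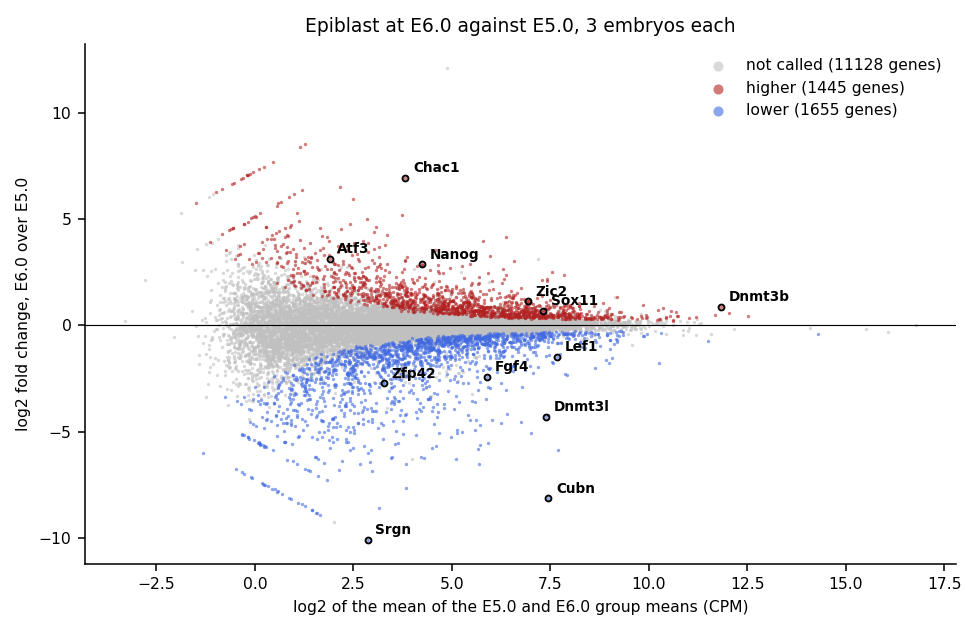
Log2 fold change of E6.0 over E5.0 against the log2 of the mean of both group means in CPM, 1 point per gene tested, with 3 embryos per stage. Red points (1445) are higher and blue points (1655) lower at an adjusted p under 0.05, and grey points did not pass. Labelled genes are described in the text.

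The change was spread over both steps. For each called gene the share of its log2 change that was present at E5.5 was taken, so that 0% means the E5.0 level and 100% the E6.0 level. The median share was 59.8% among risers and 50.4% among fallers. By this share 231 risers were late (under 33.3%), 559 even and 468 early (over 66.7%), while 72 lay below the E5.0 level at E5.5 and 115 lay beyond the E6.0 level. Among fallers 380 were late, 703 even and 363 early, with 75 on the far side of E5.0 and 134 beyond E6.0. The E5.5 epiblasts also entered a direct test against the midpoint of the other stages on the log2 scale. It called 83 of 14228 genes (0.583%), 54 above (0.38%) and 29 below (0.204%). A share given below without a p from this test is a description. Of the fallers 36 were above the midpoint and 9 were below it. Of the risers 9 were above and 9 below. Leaving out single embryos moved this count from 19 (without E5.5 embryo 2) to 160 (without E5.0 embryo 1), so it depends on which embryos are in the fit. The separate steps called 971 genes (6.82%) for E5.5 against E5.0, with 437 higher (3.07%) and 534 lower (3.75%). They called 631 (4.43%) for E6.0 against E5.5, with 269 higher (1.89%) and 362 lower (2.54%). Both steps share the E5.5 embryos. In all 45 risers and 84 fallers passed in both steps, and 908 risers and 964 fallers passed in neither.

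**Figure D3:**
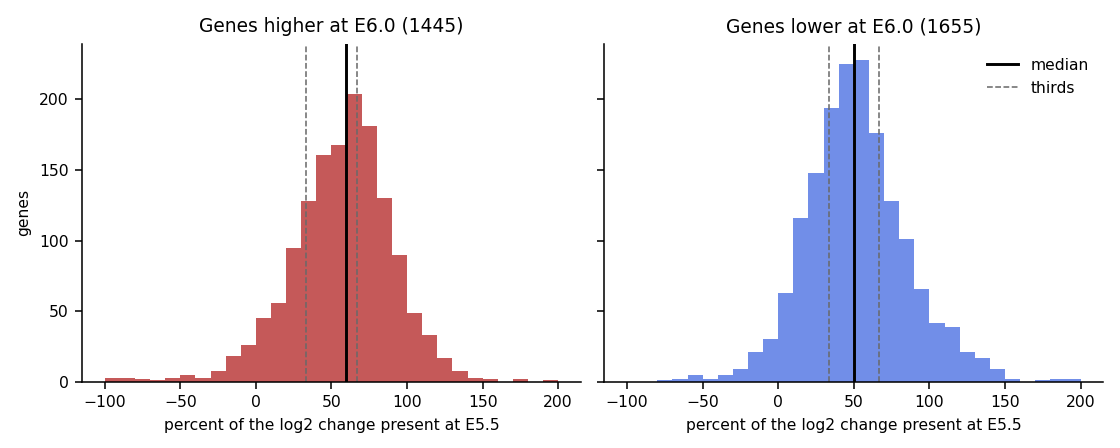
Number of called genes by the percent of their log2 change present at E5.5, for the 1445 higher and the 1655 lower genes, in bins of equal width, with solid lines at the medians (59.8% and 50.4%) and dashed lines at 33.3% and 66.7%. The 4 genes outside the drawn range are placed in the end bins.

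The naive pluripotency genes that changed all fell. Zfp42, the zinc finger factor REX1 by which naive cells are often recognised, was at 15.8, 20.9 and 13.5 CPM at E5.0, at 10.8, 7.20 and 13.8 CPM at E5.5 and at 1.44, 2.51 and 3.50 CPM at E6.0. The E5.0 and E5.5 embryos overlapped, and all E6.0 embryos were below both (log2 change -2.73 ± 0.38 SE, adjusted p 0.000188). Of that change 23.9% was present at E5.5, but the test against the midpoint did not pass (adjusted p 0.330). Fgf4, the FGF ligand of the early epiblast, was at 105, 103 and 94.3 CPM at E5.0, at 62.6 to 83.2 CPM at E5.5 and at 15.8, 15.3 and 24.2 CPM at E6.0. Its log2 change was -2.45 ± 0.18 (adjusted p 1.33e-06), with 18.8% of it present at E5.5, where its level was above the midpoint (log2 0.76, adjusted p 0.0345). Tfcp2l1, a factor that sustains naive self-renewal, went down from 13.3, 7.27 and 6.61 CPM through 2.37 to 5.10 CPM to 1.92, 0.626 and 1.65 CPM (log2 change -2.72 ± 0.52, adjusted p 0.00213), and its E5.5 level did not pass against the midpoint (adjusted p 0.962). Klf5 also passed (log2 change -1.54 ± 0.47, adjusted p 0.0323), but E5.0 embryo 2 stood apart at 29.6 CPM against 7.87 and 10.02 CPM. Without that embryo its log2 change was -0.72 (adjusted p 0.213), and the call was also lost without any one E6.0 embryo. In all, 4 of the 10 tested naive genes were lower and none was higher, against 10.2% higher and 11.6% lower over all genes, and the list's median was -1.42. Without E5.0 embryo 2 that median was -0.905. Klf4 was already low at every stage, at 3.65 to 5.92 CPM, and Esrrb and Prdm14, the latter with no count in any embryo, were not tested.

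Core pluripotency genes stayed on, and several rose. Pou5f1 (log2 change 0.19 ± 0.08, adjusted p 0.126) and Sox2 (0.44 ± 0.20, adjusted p 0.130) did not pass. Lin28a, an RNA-binding protein that blocks let-7 maturation, rose from 377, 356 and 360.2 CPM through 462 to 515 CPM to 582, 669 and 692 CPM (log2 change 0.83 ± 0.09, adjusted p 2.58e-05), and no stage overlapped with another. Tcf7l1, a repressor of WNT target genes, was higher by a log2 change of 0.78 ± 0.13 (adjusted p 0.000696) and had made 93.3% of that change by E5.5. Sall4, a zinc finger factor of the pluripotency network, went from 403 to 417 CPM up to 522 to 559.5 CPM (log2 change 0.41 ± 0.09, adjusted p 0.00493). Nanog, which dips when the naive state is left and returns in the posterior epiblast, was at 9.69, 2.55 and 1.21 CPM at E5.0, at 6.03, 6.06 and 14.2 CPM at E5.5 and at 33.7, 40.3 and 26.1 CPM at E6.0. All E6.0 embryos were above all others, with a log2 change of 2.87 ± 0.68 (adjusted p 0.0170). The spread at E5.0 limits this value: it was 4.24 without E5.0 embryo 1, and the adjusted p was 0.0622 without E5.0 embryo 2. Counting Utf1, which was lower but lost its call in 5 of the 9 fits without a single embryo (adjusted p up to 0.157), 4 of 8 core genes were higher and 2 lower, against 10.2% higher and 11.6% lower over all genes.

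Among formative genes, those that mark the state between naive and primed pluripotency, 5 of 14 were higher and 3 lower, against 10.2% and 11.6% over all genes. The 5 risers kept their calls in all 9 fits without a single embryo. Zic5 rose from 47.5, 66.0 and 30.6 CPM to 128, 132 and 120.3 CPM (log2 change 1.41 ± 0.23, adjusted p 0.000965) and its paralogue Zic2 from 72.6, 105 and 51.8 CPM to 156, 172 and 171 CPM (1.13 ± 0.24, adjusted p 0.00738). Sox11, a SoxC factor known from neural progenitors, rose from 117 to 129.8 CPM to 176 to 221 CPM (log2 change 0.69 ± 0.11). Sall2 (0.59 ± 0.11) and Tead2 (0.54 ± 0.10), the latter a partner of YAP, rose as well, and all 5 were even in time. Grhl2, an epithelial factor tied to formative enhancers, fell from 136 to 152 CPM to 54.4 to 64.1 CPM (log2 change -1.26 ± 0.14, adjusted p 3.76e-05). Tcf15 fell from 40.8, 9.64 and 36.9 CPM to 2.04, 1.72 and 6.03 CPM (log2 change -3.16 ± 0.75, adjusted p 0.0192, and -3.95 without E6.0 embryo 3), a call lost without E5.0 embryo 4 or E6.0 embryo 1 or 2 (adjusted p up to 0.0817). Etv5, an effector of FGF signalling, moved little (-0.32 ± 0.11) and lost its call in 7 of those fits. Fgf5 (0.23 ± 0.15, adjusted p 0.313), Otx2 (0.37 ± 0.19, adjusted p 0.190) and Pou3f1 (-0.36 ± 0.16, adjusted p 0.139), the usual markers of this state, did not pass.

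**Figure D4:**
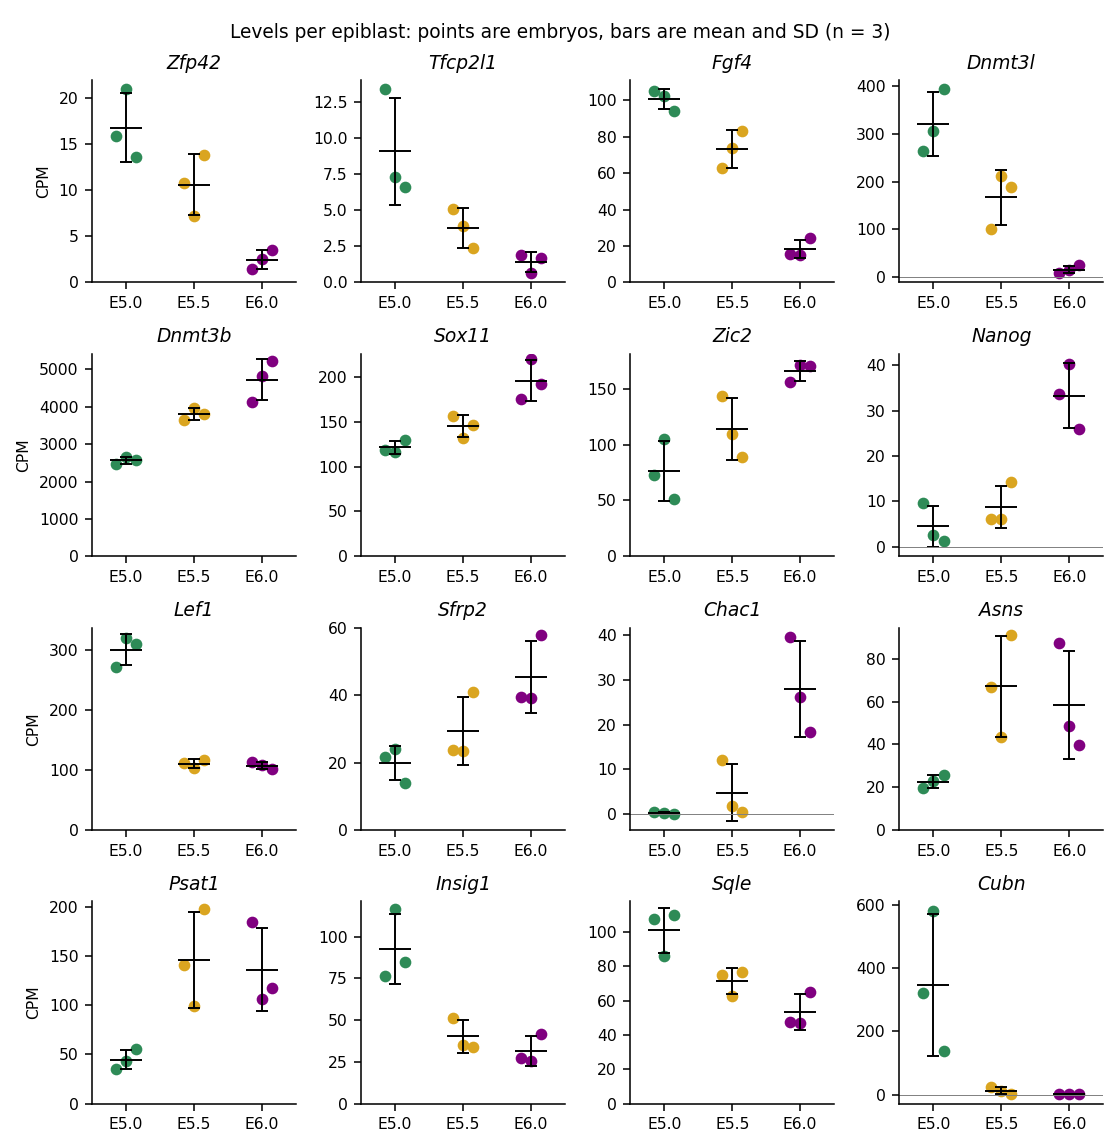
Level in CPM (linear axes) of 16 genes in each epiblast at E5.0, E5.5 and E6.0. Points are embryos, and bars give the mean and SD of 3 embryos. Fgf4 drops mainly after E5.5 and Lef1 before it. Zfp42 is lowest and Nanog and Chac1 are highest in the E6.0 embryos.

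The enzymes of DNA methylation moved apart. Dnmt3l, the catalytically inactive cofactor of the de novo methyltransferases, was at 264, 306 and 394 CPM at E5.0, at 101, 211 and 189 CPM at E5.5 and at 8.99, 14.5 and 24.6 CPM at E6.0 (log2 change -4.32 ± 0.45, adjusted p 0.000598). Of that log2 change 21.8% was present at E5.5 (midpoint adjusted p 0.199). Dnmt3b, the main de novo methyltransferase of the epiblast, rose over the same interval from 2459, 2649 and 2585 CPM to 4135, 4813 and 5225 CPM (log2 change 0.88 ± 0.08, adjusted p 7.27e-06), with the E5.5 embryos between the other stages and apart from both. Dnmt3a (-0.21 ± 0.11, adjusted p 0.186) and Dnmt1 (-0.06 ± 0.09, adjusted p 0.658) did not pass. Uhrf1, which brings DNMT1 to newly copied DNA, fell from 683 to 706 CPM to 423 to 466 CPM (log2 change -0.63 ± 0.08, adjusted p 0.000115). Tet1, the dioxygenase that oxidises methylcytosine, was level at E5.0 (504 to 510.2 CPM) and E5.5 (464 to 602 CPM) and then fell to 280.2 to 315 CPM (-0.78 ± 0.10, adjusted p 0.000135). Of 9 genes, 1 was higher and 3 lower, against 10.2% higher and 11.6% lower over all genes. The smallest p-values of the whole comparison belonged to Dppa5a and Dppa2, genes known from pluripotent and germ cells. Dppa5a was at 148, 172 and 156 CPM at E5.0, at 93.0, 100.1 and 92.7 CPM at E5.5 and at 8.03, 8.69 and 9.63 CPM at E6.0 (log2 change -4.17 ± 0.13, adjusted p 3.76e-10). Dppa2 fell from 54.6 to 75.6 CPM through 38.3 to 48.6 CPM to 1.64 to 2.24 CPM (log2 change -5.07 ± 0.23, adjusted p 1.90e-08). At E5.5 Dppa5a had made 17.7% and Dppa2 13.5% of its log2 change, and both were above the midpoint (adjusted p 2.37e-05 and 7.91e-05).

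In the NODAL pathway, which keeps the epiblast pluripotent and later patterns it, 2 of 15 tested genes (13.3%) were higher and 2 (13.3%) lower. These shares are near the 10.2% higher and 11.6% lower over all genes, so they are no result about the list. Among the ligands, Gdf3 fell from 26.3, 18.4 and 24.2 CPM to 2.16, 1.41 and 2.33 CPM (log2 change -3.55 ± 0.30, adjusted p 4.22e-06), with 21.7% of that present at E5.5 (midpoint adjusted p 0.0716). Nodal itself was at 22.5 to 26.6 CPM at E5.0 and 28.8 to 38.9 CPM at E6.0, which did not pass (0.49 ± 0.22, adjusted p 0.133) although the embryos did not overlap. Tdgf1 (CRIPTO), the co-receptor of NODAL, fell from 316, 151 and 194 CPM to 32.4, 66.7 and 40.4 CPM (log2 change -2.24 ± 0.49, adjusted p 0.0188), a call lost without E6.0 embryo 1 (adjusted p 0.0712) or 3 (0.0836). The receptor Acvr2b (0.72 ± 0.16, adjusted p 0.00579) and the common mediator Smad4 (0.56 ± 0.12, adjusted p 0.00471) rose. Smad2, Smad3 and Foxh1, the transcriptional effectors, did not pass, with log2 changes between -0.05 and 0.19. The feedback inhibitors Lefty1 and Lefty2 varied between embryos at E5.0, at 1.25 to 16.2 and 4.33 to 8.001 CPM, and did not pass.

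Of 16 tested WNT genes, 4 were higher and 2 (12.5%) lower, against 10.2% higher and 11.6% lower over all genes. Lef1, a transcription factor that carries the WNT signal, was at 273, 321 and 311 CPM at E5.0, at 112, 103 and 117 CPM at E5.5 and at 113, 108 and 101 CPM at E6.0. Its fall was complete at E5.5 (96.9% of a log2 change of -1.49 ± 0.10, adjusted p 6.68e-07), and the E5.5 level was below the midpoint (adjusted p 0.00295). The receptor Lgr4 fell from 109 to 127 CPM to 57.8 to 62.0 CPM (-0.996 ± 0.12, adjusted p 8.27e-05), with 69.0% of that present at E5.5, and did not pass against the midpoint (adjusted p 0.504). Lrp6, the WNT co-receptor, rose from 94.96 to 103 CPM to 143 to 151 CPM (0.56 ± 0.10, adjusted p 0.00125), and the secreted antagonist Sfrp2 from 21.5, 24.0 and 14.1 CPM to 39.6, 39.2 and 58.0 CPM (1.20 ± 0.27, adjusted p 0.00585). Ctnnb1 (β-catenin) passed at 0.39 ± 0.11 (adjusted p 0.0207) and did not without E6.0 embryo 2 (0.0569) or 3 (0.0632). Fzd7 lost its call in 7 of the 9 fits without a single embryo (adjusted p up to 0.187). The target gene Axin2 was at 67.6 to 80.2 CPM at E5.0, 21.3 to 32.9 CPM at E5.5 and 27.1 to 63.4 CPM at E6.0, and did not pass (-0.65 ± 0.26, adjusted p 0.0957). In the FGF list Fgf4 and Etv5, described above, were the 2 of 17 genes that passed by edgeR, which is 11.8% beside the 11.6% lower over all genes. No gene of it was higher, with 2 higher at an unadjusted p under 0.05 and 1 by DESeq2's Wald test. The receptor Fgfr1, at 113 to 128 CPM, differed by -0.11 ± 0.11, and the feedback genes Dusp6 (-0.27 ± 0.13), Spry2 (0.01 ± 0.18) and Spry4 (-0.51 ± 0.18) did not pass either. In the BMP list 3 of 15 genes were higher, against 10.2% over all genes, and none was lower by edgeR, with 3 lower at an unadjusted p under 0.05 and 0 by DESeq2's Wald test. The receptor-regulated Smad5 went from 16.7 to 21.4 CPM up to 36.7 to 42.9 CPM (1.03 ± 0.19, adjusted p 0.00192). Id3, a direct BMP target, went from 19.5, 12.4 and 3.85 CPM to 40.2, 47.8 and 35.8 CPM (1.80 ± 0.42, adjusted p 0.0129). Its log2 change was 2.43 without E5.0 embryo 1. Fst (follistatin), which binds activin, was lowest at E5.5: 13.6, 4.18 and 7.49 CPM at E5.0, 1.14 to 4.06 CPM at E5.5 and 26.5, 42.0 and 19.6 CPM at E6.0, with an adjusted p of 0.0181 for the rise and 0.0394 for lying below the midpoint. The rise did not pass without E5.0 embryo 4 (0.0705) or E6.0 embryo 2 (0.0773).

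Primitive streak genes were uneven among the E6.0 embryos. E6.0 embryo 2 had the highest level of Eomes (169 CPM against 89.7 and 63.6 CPM), Fgf8 (71.3 against 36.5 and 30.0 CPM), Mixl1 (9.24 against 0.600 and 0.194 CPM) and T (12.8 against 2.998 and 0.292 CPM). T (brachyury), the defining streak factor, had 1 count over the 3 E5.0 embryos and 191 over the 3 E6.0 embryos but was too low to be tested. Eomes, Fgf8 and Mixl1 did not pass. By edgeR 0 of 10 tested streak genes were higher at E6.0, against 10.2% over all genes, and 1 was lower (10%), near the 11.6% over all genes. There were 2 higher at an unadjusted p under 0.05 and 1 by DESeq2's Wald test. Gsc, an organiser factor, was at 2.20 to 3.65 CPM at E5.0, 0.208 to 0.761 CPM at E5.5 and 5.76 to 9.87 CPM at E6.0, below the midpoint at E5.5 (adjusted p 0.0178). Its rise from E5.0 to E6.0 did not pass (1.38 ± 0.49, adjusted p 0.0615). The gene that fell, Lhx1, is also made in anterior visceral endoderm. It was at 20.1, 14.2 and 9.47 CPM at E5.0, at 0.936 to 1.61 CPM at E5.5 and at 0.240 to 1.64 CPM at E6.0 (log2 change -3.91 ± 0.55, adjusted p 0.000221, and -4.62 without E6.0 embryo 2). Of 5 tested neural plate genes 1 was higher and 1 lower, against 10.2% higher and 11.6% lower over all genes. Nes (nestin), an intermediate filament of neural progenitors, rose from 49.9, 62.4 and 39.8 CPM to 145, 126 and 114 CPM (1.34 ± 0.17, adjusted p 0.000114). Cdh2 (N-cadherin) fell (-1.15 ± 0.29, adjusted p 0.0128), without a call if E6.0 embryo 1 (0.0643) or 3 (0.0656) was left out.

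Of the basement membrane genes Col4a1, Col4a2, Nid1 and Lamb1 fell, while Lama1, Lama5, Lamc1 and Hspg2 and the adhesion genes of the epithelium did not pass the test. Cdh1 (E-cadherin) was at 535 to 616 CPM at E5.0 and 573 to 679 CPM at E6.0 (0.13 ± 0.09, adjusted p 0.336), and Epcam, Tjp1, Cldn6 and Cldn7 did not pass. Of the chains of type IV collagen, the mesh of basement membranes, Col4a1 fell from 179, 287 and 121 CPM to 83.0, 78.2 and 86.5 CPM (-1.24 ± 0.25, adjusted p 0.00578) and Col4a2 from 59.4, 106 and 39.8 CPM to 18.2, 15.3 and 26.2 CPM (-1.78 ± 0.32, adjusted p 0.00199). Nid1, which links laminin to that mesh, fell from 19.6, 37.6 and 16.8 CPM to 1.20, 2.19 and 1.17 CPM (-3.98 ± 0.43, adjusted p 2.85e-05). In all 3 genes E5.0 embryo 2, which had the highest visceral endoderm sum, was also the highest. Itga3 and Dag1, given below, were instead highest in E5.0 embryo 4, which had the lowest sum. At E5.5 Col4a1 had made 96.5% and Col4a2 101% of the log2 change, and Nid1 57.8%. Visceral endoderm lays down much of this membrane, and its markers were also higher at E5.0. The part of that tissue in these falls was not tested. Lamb1 (-0.59 ± 0.13) fell as well. Hspg2 (perlecan) differed by 0.42 ± 0.15 (adjusted p 0.0556), with all E6.0 embryos above all E5.0 embryos. Another type IV chain, Col4a5, was higher, with no count at E5.0 and 62 at E6.0, at least 4.71-fold higher against 3 counts per library. The receptors for the membrane moved in both directions. Itga6, an integrin for laminin, rose from 51.1 to 52.1 CPM to 98.0 to 124 CPM (1.11 ± 0.12, adjusted p 3.76e-05), while Itga3 fell from 97.9, 134 and 171 CPM to 39.2, 48.9 and 61.8 CPM (-1.43 ± 0.30, adjusted p 0.00974) and Dag1 (dystroglycan) from 130.3, 144 and 185 CPM to 86.2, 73.6 and 79.2 CPM (-0.95 ± 0.13, adjusted p 0.000186). With the polarity gene Pard3 (0.55 ± 0.14) and Podxl (-0.39 ± 0.11, lost in 5 of the 9 fits without a single embryo, adjusted p up to 0.108), 2 of 24 genes were higher (8.33%) and 7 lower (29.2%), against 10.2% higher and 11.6% lower over all genes.

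Genes of cholesterol synthesis and its control were lower at E6.0. Of 21 genes 9 fell (42.9%) and none rose, against 11.6% lower and 10.2% higher over all genes. The median log2 change was -0.69, and 6 of the 9 kept the call in all fits without a single embryo. Insig1, the sterol sensor that holds back SREBP, fell from 76.6, 116 and 84.6 CPM through 34.0 to 51.5 CPM to 27.5, 25.4 and 41.5 CPM (-1.55 ± 0.23, adjusted p 0.000382). All its E6.0 embryos were below all E5.0 embryos. The enzymes Sqle (-0.93 ± 0.16, adjusted p 0.000943), Hmgcs1 (-0.76 ± 0.17, adjusted p 0.00618) and Nsdhl (-1.16 ± 0.23, adjusted p 0.00299) fell by less. Lss, Msmo1 and Ebp lost their calls in 4, 5 and 8 of the 9 fits (adjusted p up to 0.119, 0.174 and 0.164). Idi1, at 55.2 to 76.0 CPM, differed by -0.08 ± 0.18 and did not pass. Because these genes are the textbook targets of SREBP2, their promoters (RefSeq, build GRCm38.p6) were searched on both strands for TCACNCCAC, a form of the sterol regulatory element. It was in 346 of 32851 promoters of the same length (1.05%) and in 1 of 18 promoters, from 15 genes of the list, that of Hmgcs1. The 250 bases before the Hmgcs1 start, chr13:119690101-119690350 on the + strand, are shown with the match in capitals.
Hmgcs1: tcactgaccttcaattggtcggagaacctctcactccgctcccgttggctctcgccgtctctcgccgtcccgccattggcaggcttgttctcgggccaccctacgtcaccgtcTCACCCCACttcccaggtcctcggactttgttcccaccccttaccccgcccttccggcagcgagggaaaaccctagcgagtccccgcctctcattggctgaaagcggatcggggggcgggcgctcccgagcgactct

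Genes of glucose transport and glycolysis changed in both directions. Of 21 genes 4 were higher and 3 lower (14.3%), against 10.2% higher and 11.6% lower over all genes, with a median of 0.07. The glucose transporters Slc2a1 (GLUT1) and Slc2a3 (GLUT3) rose, from 235, 203 and 143 CPM to 374, 305 and 346 CPM (0.82 ± 0.16, adjusted p 0.00213) and from 106, 78.9 and 63.1 CPM to 209, 220.4 and 179 CPM (1.29 ± 0.20, adjusted p 0.000921). Of these log2 changes -1.76% and 21.0% were present at E5.5, but neither level passed against the midpoint (adjusted p 0.202 and 0.408). Ldhb, a subunit of lactate dehydrogenase, rose from 13.5 to 24.97 CPM to 51.4 to 63.9 CPM at E5.5 and 60.3 to 89.9 CPM at E6.0 (1.89 ± 0.22, adjusted p 5.46e-05), with a midpoint adjusted p of 0.131. Aldoa (-0.51 ± 0.08) and Pfkp (-1.28 ± 0.22) fell. Gapdh rose by 0.37 ± 0.09 (adjusted p 0.0133, and 0.0531 without E6.0 embryo 1), so this common reference gene was not constant here. Gpi1 lost its call in 5 of the 9 fits (adjusted p up to 0.132). Pdk1, the kinase that keeps pyruvate out of mitochondria, peaked between the stages: 29.1 to 31.3 CPM at E5.0, 60.0 to 97.9 CPM at E5.5 and 19.7 to 30.3 CPM at E6.0, above the midpoint with an adjusted p of 0.00195.

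Genes of the ATF4 response, which answers amino acid shortage and other stresses by raising amino acid synthesis and import, were higher at E6.0. Of 18 genes 10 rose (55.6%) and none fell, against 10.2% higher and 11.6% lower over all genes, with a median log2 change of 1.28 against -0.0215. Atf4, the transcription factor itself, went from 122, 122 and 82.8 CPM through 131 to 212 CPM to 258, 264 and 223 CPM (1.19 ± 0.19, adjusted p 0.000931). All E6.0 embryos were above all others. Chac1, which degrades glutathione and is a sensitive target of the pathway, had 5 counts over the 3 E5.0 embryos and 853 over the 3 E6.0 embryos. Its level was 0.456, 0.182 and 0 CPM at E5.0, 11.97, 1.77 and 0.423 CPM at E5.5 and 39.7, 26.1 and 18.4 CPM at E6.0. The ratio was 127 (95% counting interval 54.2 to 392), and the fitted log2 change was 6.95 ± 1.44 (adjusted p 0.0126). Without E5.0 embryo 1 it was 8.43, and the adjusted p was 0.0539 without E5.0 embryo 2 and 0.0557, at 6.30, without E5.0 embryo 4. Of the serine and one-carbon enzymes 3 rose: Psat1 from 35.3, 43.6 and 55.2 CPM to 184, 107 and 117 CPM (1.60 ± 0.30, adjusted p 0.00617), Phgdh from 55.9 to 78.0 CPM to 111 to 124 CPM (0.81 ± 0.13, adjusted p 0.000605) and Mthfd2 from 28.3 to 33.1 CPM to 79.2 to 121 CPM (1.69 ± 0.23, adjusted p 0.000216). The amino acid transporter Slc7a5 went from 74.0 to 94.0 CPM up to 150.0 to 197 CPM (0.98 ± 0.16, adjusted p 0.000732). By E5.5 Psat1 had made 106%, Phgdh 98.0% and Slc7a5 91.9% of the log2 change. These enzymes, Slc7a5 and Atf4 kept their calls in all 9 fits without a single embryo, and the other 5 did not. Asns, asparagine synthetase, rose from 19.6, 22.7 and 25.4 CPM to 87.3, 48.4 and 39.8 CPM (1.37 ± 0.33, adjusted p 0.0133, and 0.0523 or 0.0600 without E5.0 embryo 1 or 2). The stress factors Atf3 (3.14 ± 0.79, adjusted p 0.0121, and 0.0602 without E6.0 embryo 1) and Ddit3 (CHOP, 2.05 ± 0.56, adjusted p 0.0188, and 0.0606 or 0.0974 without E6.0 embryo 1 or 2) stayed low, at 3.89 to 8.87 and 6.03 to 8.38 CPM at E6.0. The log2 change of Atf3 was 3.85 without E5.0 embryo 2 and 2.52 without E5.0 embryo 4. Vldlr passed (2.21 ± 0.60, adjusted p 0.0188) but not without E6.0 embryo 1 (1.65, adjusted p 0.106). That embryo had the highest Chac1, Asns, Psat1, Mthfd2, Atf3 and Vldlr of the 3 E6.0 embryos. The cystine transporter Slc7a11 (2.13 ± 0.87, adjusted p 0.0996), Trib3 (1.37 ± 0.72, adjusted p 0.214), Shmt2 (-0.34 ± 0.19) and Slc3a2 (-0.03 ± 0.15) did not pass.

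Since ATF4 binds a composite element, TGATGNAA, the same RefSeq promoters were searched for it on both strands. It was in 1134 of 32851 promoters (3.45%) and in 6 of 19 promoters, from 16 genes of this list, those of Chac1, Atf3, Asns, Vldlr, Slc7a11 and Nupr1. Slc7a11 and Nupr1 did not pass, and the other 4 each lost the call in some fit without a single embryo. No match was found for Atf4, Psat1, Phgdh, Mthfd2 or Slc7a5, which kept their calls. A match is a run of letters, not a measured binding site. The 250 bases before the start are shown 5′ to 3′ for 3 of the 4 called genes with a match, Chac1 (chr2:119350992-119351241, + strand), Atf3 (chr1:191183334-191183583, - strand) and Asns (chr6:7693210-7693459, - strand), with the match in capitals. In Chac1 and Atf3 it lies on the opposite strand and so reads in reverse.
Chac1: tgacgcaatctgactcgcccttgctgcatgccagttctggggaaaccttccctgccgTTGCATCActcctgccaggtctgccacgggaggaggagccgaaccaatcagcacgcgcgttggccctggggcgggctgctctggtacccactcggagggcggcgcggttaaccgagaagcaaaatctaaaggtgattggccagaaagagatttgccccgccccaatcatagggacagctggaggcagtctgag
Atf3: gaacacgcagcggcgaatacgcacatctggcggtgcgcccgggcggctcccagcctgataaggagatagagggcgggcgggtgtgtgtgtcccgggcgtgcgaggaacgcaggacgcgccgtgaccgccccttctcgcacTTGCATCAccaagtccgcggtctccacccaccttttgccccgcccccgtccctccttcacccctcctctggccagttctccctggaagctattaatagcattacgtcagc
Asns: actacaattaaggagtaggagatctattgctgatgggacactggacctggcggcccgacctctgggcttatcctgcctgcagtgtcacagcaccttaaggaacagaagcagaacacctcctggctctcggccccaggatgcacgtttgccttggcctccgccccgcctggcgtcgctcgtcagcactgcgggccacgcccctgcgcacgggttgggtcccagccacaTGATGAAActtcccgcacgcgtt

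Cell cycle genes moved in both directions, with 4 of 18 higher (22.2%) and 3 lower (16.7%), against 10.2% higher and 11.6% lower over all genes. Ccnd1 (cyclin D1) went from 86.2, 106 and 120.2 CPM up to 166, 177 and 171 CPM (0.72 ± 0.15, adjusted p 0.00352) while Ccnd3 fell from 71.3, 79.1 and 85.9 CPM to 42.8, 45.7 and 36.5 CPM (-0.92 ± 0.16, adjusted p 0.000954). Of the CDK inhibitors, Cdkn1b (p27) rose from 13.1 to 13.8 CPM to 26.9 to 32.4 CPM (1.10 ± 0.22, adjusted p 0.00273) and the imprinted Cdkn1c (p57) fell from 35.1, 62.0 and 78.0 CPM to 12.7, 15.1 and 16.6 CPM (-1.97 ± 0.28, adjusted p 0.000254). Mycn rose (0.58 ± 0.14, adjusted p 0.00970). Rbl1 and Ccne1 lost their calls in 6 and 5 of the 9 fits (adjusted p up to 0.116 and 0.146). In the p53 list Pmaip1 (NOXA), a trigger of apoptosis, rose from 44.1, 40.9 and 74.3 CPM to 127, 142 and 134 CPM (1.33 ± 0.22, adjusted p 0.00120) and Trp53inp1 fell (-1.26 ± 0.27, adjusted p 0.00470). Sesn1 fell by 1.07 on the log2 scale, with the call lost in 8 of the 9 fits. Cdkn1a (p21) did not pass (-0.87 ± 0.51, adjusted p 0.253), so 1 of 15 was higher (6.67%) and 2 lower (13.3%), near the shares over all genes.

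Of the clustered histone genes, which are transcribed mainly in S phase, 21 of 63 were higher (33.3%) and none was lower, against 10.2% higher and 11.6% lower over all genes. Their log2 changes ran from -1.55 to 3.10 with a median of 0.72. The list summed to 7017, 3348 and 6656 CPM in E5.0 embryos 1, 2 and 4 and to 8604, 9889 and 11710.0 CPM in E6.0 embryos 1, 2 and 3. E5.0 embryo 2 was the lowest, and without it the median was 0.45, the lowest of the 9 fits without a single embryo, which went up to 0.94. Hist1h3c was at 40.1, 20.5 and 28.0 CPM at E5.0 and 77.5, 93.3 and 112 CPM at E6.0 (1.66 ± 0.27, adjusted p 0.00127), and Hist1h1b, the linker histone, at 342, 161 and 313 CPM against 441, 507 and 593 CPM (0.92 ± 0.26, adjusted p 0.0393). Only 8 of the 21 kept their call in all 9 fits, and Hist1h1b was not among them (adjusted p up to 0.123). The copies are near identical, so reads between them are uncertain. Cytoplasmic ribosomal protein genes had a smaller share of calls than all genes (2 of 82 higher, 2.44%, and 6 lower, 7.32%, median 0.01), and Rplp0 lost its call in 6 of the 9 fits. The lowest log2 change among them was that of Rpl10l, an autosomal retrogene copy of an X-linked ribosomal protein gene, at 55.7, 35.5 and 50.7 CPM at E5.0, 12.5 to 15.97 CPM at E5.5 and 3.24, 2.35 and 2.72 CPM at E6.0 (-4.10 ± 0.26, adjusted p 2.40e-07), a gene singled out after its values were seen, and reads between such copies are uncertain. Of the nuclear genes of the respiratory chain 1 of 76 was higher (1.32%) and 9 were lower (11.8%, near the 11.6% over all genes). Cox6c, a subunit of cytochrome oxidase named after its value was seen, fell from 256 to 308 CPM to 136 to 169 CPM (-0.84 ± 0.11, adjusted p 0.000104). Of the 13 protein genes of the mitochondrial genome 5 fell (38.5%, against 11.6% over all genes), among them mt-Co1 (-0.73 ± 0.11), mt-Co2 (-0.68 ± 0.12) and mt-Co3 (-0.74 ± 0.12).

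**Figure D5:**
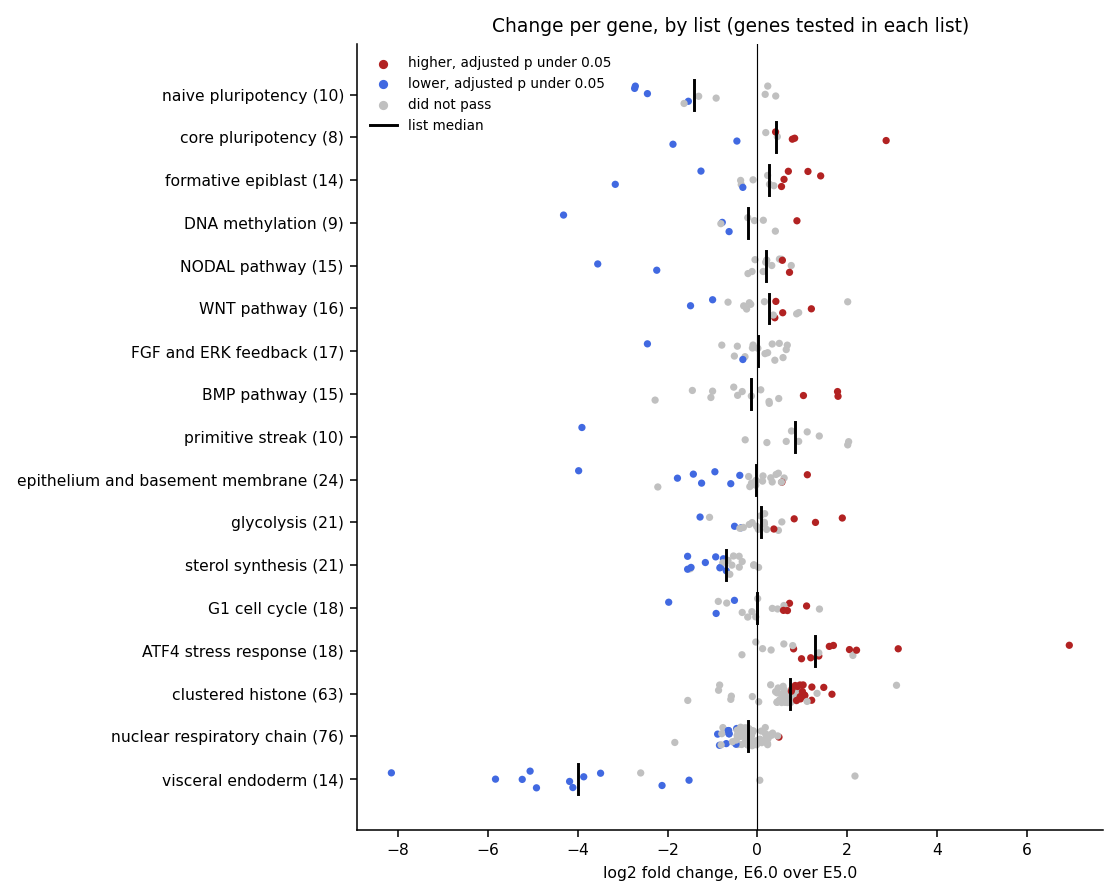
Log2 fold change of E6.0 over E5.0 for each tested gene of 17 lists, with the number of genes in parentheses. Red and blue points passed at an adjusted p under 0.05 and grey points did not, and a black bar marks each list's median. The medians of the visceral endoderm genes (-3.99) and the ATF4 response genes (1.28) lie on opposite sides of 0, and members of both lists cross it. Visceral endoderm markers mark another tissue.

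Further genes were named by size among called protein-coding genes averaging 10 CPM or more in whichever stage was higher and no overlap between the stages, leaving out symbols starting with Gm and a digit or ending in Rik, so genes outside these limits could have larger changes. Within them the 12 largest rises were in genes that were low at E5.0. The largest belonged to Chac1 and the next to Dlg2, a synaptic scaffold, with 4 counts at E5.0 and 366 at E6.0 (ratio 68.1, 95% counting interval 26.4 to 251). Its fitted log2 change moved from 5.95 to 9.76 without E5.0 embryo 1 and to 5.32 without E5.0 embryo 4. Zfp521, a zinc finger factor that promotes neural fate, rose from 1.14, 0.727 and 0.220 CPM through 4.73 to 6.55 CPM to 27.6, 28.7 and 21.2 CPM (5.20 ± 0.43, adjusted p 3.53e-06, and 5.91 without E5.0 embryo 1). Cpe, a carboxypeptidase of peptide hormones, rose from at most 0.661 CPM to 12.95 to 14.5 CPM (4.98 ± 0.44, adjusted p 5.92e-06). Robo1, a receptor for SLIT guidance cues, was at 6.61, 10.4 and 3.74 CPM at E5.0, 22.5 to 45.0 CPM at E5.5 and 114, 101 and 95.1 CPM at E6.0 (3.95 ± 0.35, adjusted p 2.33e-05). The mechanically gated channel Piezo2 (4.26 ± 0.48) rose, as did Spon1 (4.39 ± 0.54), Hmcn1 (3.98 ± 0.63), Unc80 (3.88 ± 0.53), Rgl3 (4.60 ± 0.49), Antxr1 (4.76 ± 0.77) and H2afy2 (3.86 ± 0.52), the last a macroH2A variant. Antxr1 moved to 5.82 without E5.0 embryo 2 and 4.12 without E5.0 embryo 4, and H2afy2 to 4.72 without E5.0 embryo 2. All 12 were even or early in time. The rises with the smallest p were in genes already expressed. Gtf2i, a general transcription factor, rose from 53.6, 73.5 and 100.1 CPM to 372, 394 and 398 CPM (2.36 ± 0.17, adjusted p 2.74e-06), and 75.2% of that was present at E5.5. Psip1 (LEDGF), a chromatin protein, went from 296 to 359 CPM up to 803 to 871 CPM (1.33 ± 0.09, adjusted p 4.38e-07), the kinesin Kif5c rose by 2.08 ± 0.14, the kinase Stk39 by 2.87 ± 0.23, the NuRD subunit Mta1 by 1.47 ± 0.12 and the fatty acid binding protein Fabp5 by 1.99 ± 0.16.

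Within the same limits the 12 largest falls included genes of other tissues and of antiviral defence. Srgn, a proteoglycan of secretory granules, had 345 counts at E5.0 (22.5, 11.8 and 9.14 CPM) and none at E6.0, at least 49.0-fold lower against 3 counts per library. Cubn, the visceral endoderm receptor cubilin, fell from 321, 583 and 137 CPM through 3.38 to 24.4 CPM to 0.959, 1.25 and 1.36 CPM (-8.15 ± 1.07, adjusted p 0.00300, and -7.55 without E5.0 embryo 2). Cubn was highest in E5.0 embryo 2, as was the summed visceral endoderm list. Other defining genes of that tissue fell too, Apob (-5.83 ± 0.81, and -5.14 without E5.0 embryo 1) and Hnf4a (-5.06 ± 0.48). Phf11d, an interferon-inducible gene, had 430 counts at E5.0 and 1 at E6.0 (ratio 578, 95% counting interval 103 to 22900), Ddx60 396 and 4 (ratio 133, 51.6 to 491), Zbp1 699 and 9 (ratio 104, 54.7 to 229) and Gbp2 364 and 7 (ratio 69.9, 33.6 to 175). Their fitted log2 changes moved with single E6.0 embryos: Phf11d from -8.62 to -10.42 without embryo 1 and -8.03 without embryo 2, Ddx60 from -6.84 to -7.87 and Gbp2 from -5.99 to -6.91 without embryo 2, and Zbp1 from -6.55 to -5.85 without embryo 2 and -7.995 without embryo 3. Morc1, which represses transposons in the male germ line, fell from 24.6, 34.2 and 56.9 CPM to 0, 0.392 and 1.07 CPM (-6.22 ± 0.63, and -7.30 without E6.0 embryo 3). Triml2 (-6.19 ± 0.41), Zfp985 (-6.53 ± 0.37), Zfp977 (-5.89 ± 0.68, and -7.82 without E6.0 embryo 2), AU018091 (-6.22 ± 0.68, and -8.31 without E6.0 embryo 2) and Fam25c (-5.88 ± 0.90, between -6.68 without E6.0 embryo 1 and -5.19 without E6.0 embryo 2) were the others of the 12. Among the falls with the smallest p within these limits, beside Dppa5a and Dppa2, were those of Tle4, Gab1 and Zfp936. Tle4, a Groucho co-repressor, went down from 396, 354 and 463 CPM to 86.1, 76.3 and 74.9 CPM (-2.35 ± 0.12, adjusted p 4.77e-08). Gab1, a docking protein of receptor tyrosine kinases, fell from 103 to 122 CPM to 11.6 to 16.3 CPM (-2.96 ± 0.16) and the zinc finger gene Zfp936 from 76.2 to 129 CPM to 3.12 to 4.38 CPM (-4.70 ± 0.23). Reads between close copies of zinc finger genes are uncertain.

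Further genes had an E5.5 level away from the midpoint. Rex2 fell late, like the Dppa genes (161 to 268, then 96.8 to 140.1, then 7.67 to 10.4 CPM, midpoint adjusted p 0.00208). Mkrn1, a ubiquitin ligase, was at 754, 715 and 697 CPM at E5.0, 782, 783 and 929 CPM at E5.5 and 194, 239 and 272 CPM at E6.0 (midpoint adjusted p 0.000187). All its E5.5 embryos were above all E5.0 embryos, but that p does not test this step. Amot, angiomotin, which holds YAP in the cytoplasm, fell early like Lef1 (359, 415 and 388 CPM, then 64.3 to 108 CPM, then 67.6 to 98.2 CPM, adjusted p 0.0216). In 3 other fallers the mean at E5.5 was below that at E6.0. Jarid2, a subunit of the Polycomb complex, had means of 494, 265 and 301 CPM at E5.0, E5.5 and E6.0 (adjusted p 0.0178), and Soat1, which esterifies cholesterol, 173, 73.4 and 85.5 CPM (adjusted p 0.00538). In both genes the E5.5 and E6.0 embryos overlapped. Oat had means of 37.7, 16.2 and 26.2 CPM, with the E5.5 embryos all below the E6.0 embryos, and its fall to E6.0 lost the call in 8 of the 9 fits. A dip at E5.5 followed by a rise was seen in Tle3, a Groucho co-repressor like Tle4. Tle3 was at 166, 176 and 137 CPM at E5.0, at 77.2, 54.7 and 48.3 CPM at E5.5 and at 233, 217 and 231 CPM at E6.0 (midpoint adjusted p 7.91e-05). Its E6.0 against E5.0 call was lost without E5.0 embryo 4 or any one E6.0 embryo (adjusted p up to 0.0823). Gja1 (a gap junction connexin, 74.0 to 119, then 66.0 to 71.2, then 169 to 203 CPM), Fstl1 (15.1 to 22.3, then 8.95 to 11.7, then 36.8 to 38.9 CPM) and the planar polarity gene Prickle1 (15.8 to 20.8, then 12.4 to 17.3, then 56.1 to 82.5 CPM) were below the midpoint too, with adjusted p of 0.00407, 0.00521 and 0.00741. Bcor was likewise below it, and its rise to E6.0 was lost in 5 of the 9 fits. Dpp8 and Zcchc14 rose early and held, with 92.1% and 97.4% of the log2 change present at E5.5. Mlec, Cdk18 and Rplp0 had a higher mean at E5.5 than at E6.0, and Mlec was at 168 to 187 CPM at E5.0, 259.5 to 281 CPM at E5.5 and 244 to 246 CPM at E6.0 (133% of its log2 change). The call of Cdk18 for E6.0 against E5.0 was lost without E6.0 embryo 2 (adjusted p 0.0878).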

How the data were processed

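RNA was sequenced from single epiblasts, and the authors deposited raw counts per gene. Per the submitters' processing notes the tools were Trim Galore, TopHat2 2.1.0 and featureCounts 1.5.0 with build mm10, and strand, strain and batch are not given in the sources used here. Library totals were 5827093 to 13006656 counts, so 3 counts correspond to 0.406 CPM at E5.0 and 0.2955 CPM at E6.0, and intervals cover counting error only.

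The deposited counts of the 9 epiblasts were fitted together with edgeR 4.0.16 (R 4.3.3) by stage, with TMM scaling, edgeR's filter on low counts and the robust quasi-likelihood F-test, two-sided, with Benjamini-Hochberg adjustment over all genes. The CPM values, log2 changes and shares at E5.5 were computed from this fit. Gene types came from GENCODE M21, which matched 33683 of 33861 identifiers, and promoters from RefSeq (GRCm38.p6). No pair of embryos agreed within sampling noise (chi-square per degree of freedom 7.57 to 23.55). The labels call each epiblast a separate collection but give no litter.

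On simulated counts for 13787 genes with known changes in E6.0 against E5.0, the fit recovered 34 of 100 genes at 2-fold and 59 of 100 at 4-fold, all in the right direction, and 10 of 103 calls were false. Genes named outside the lists were those with the largest changes, the smallest p and the strongest departure from the midpoint, in both directions, among called genes averaging 10 CPM or more in whichever stage was higher and no overlap between the stages, without genes not protein coding, symbols starting with Gm and a digit or ending in Rik. Members and lists were chosen with earlier results of these data known. Alternatives were DESeq2 1.42.0 (size factors, Wald test), other filters, left-out embryos, a replicate block, a 1.5-fold test and left-out ribosomal RNA genes. The cultured samples were not used here, and some genes that count in the totals are not reported here.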

Additional observations from a re-analysis of the deposited data

How the results depend on the processing

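No gene called in both a full and an alternative fit changed direction. Counts for E6.0 against E5.0 lay within 1.5 times of 3100 except in the test against a 1.5-fold change (1185 called, 440 higher and 745 lower) and without single embryos (1905 to 3362 called, 914 to 1638 higher, 991 to 1724 lower). The higher share of calls was 46.6%, and 37.1% in the 1.5-fold test. With the replicate block 2251 genes were called, 2042 of them shared. Same-numbered embryos of different stages correlated at -0.069 to 0.127 in their deviations from the stage means, and differently numbered ones at -0.182 to 0.134. These ranges overlap, and whether embryos of the same number share a batch or litter was not tested. For E5.5 against E5.0 the counts were 1590 with the DESeq2 Wald test, 1659 with no filter, 421 with the replicate block and 371 to 1260 without single embryos. For E6.0 against E5.5 they were 1075, 1107 with no filter and 238 to 878 without single embryos. For the midpoint they were 326, 410 and 19 to 160. The median share at E5.5 was 57.04% for risers at a mean of at least 5 CPM and 61.95% in the 1.5-fold test (56.70% to 64.44% without single embryos), and 47.66% for fallers in the 1.5-fold test (46.14% to 54.01%). Splitting at 25% and 75% gave 145 late and 307 early risers and 215 early fallers. At a mean of at least 5 CPM list medians moved to -2.002 (naive), -4.56 (visceral endoderm), -2.40 (decidua and blood) and, reversed, -0.45 (collagen). The WNT median was 0.35 from E5.0 and E6.0 alone. Without single embryos medians ran from -1.57 to -0.905 (naive), 0.14 to 0.39 (formative), -0.32 to -0.13 (DNA methylation), 0.049 to 0.33 (WNT), -1.05 to 0.39 (neural plate), -4.14 to -3.70 (visceral endoderm), -2.26 to -1.54 (decidua and blood) and -0.87 to -0.51 (zinc finger genes, Zfp900 to Zfp999). The cause of these shifts was not tested. Of 182 named genes that were called, 137 held in every fit without a single embryo and 151 in every other alternative but the 1.5-fold test. The mitochondrial list has no value in the fit that leaves its genes out. With 3 embryos a stage and few counts in low genes, a missing call does not show equal levels.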

Other observations

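Genes of the interferon response and of MHC class I antigen presentation were lower at E6.0. This list was added after values had been seen. Of 30 tested genes 19 fell and 1 rose, with a median log2 change of -2.17 against -0.0215 over all genes, where 11.6% fell and 10.2% rose. Irf1, a transcription factor of the interferon response, was at 121, 98.9 and 80.4 CPM at E5.0, at 31.0, 43.5 and 68.7 CPM at E5.5 and at 21.2, 29.2 and 23.4 CPM at E6.0 (-2.02 ± 0.27, adjusted p 0.000252, edgeR). Ddx58 (RIG-I), a sensor of viral RNA, fell from 20.6, 13.5 and 24.6 CPM to 3.72, 2.51 and 1.75 CPM (-2.89 ± 0.36, adjusted p 7.66e-05). Neither gene had an E6.0 embryo that overlapped the E5.0 embryos. H2-D1, a class I heavy chain, fell by 1.79 on the log2 scale (adjusted p 0.00573), and its copies are so alike that reads between them are uncertain. Ifit2 rose, from 6.38, 1.27 and 3.52 CPM to 14.8, 14.3 and 15.3 CPM (1.95 ± 0.41, adjusted p 0.00427). Its log2 change lay between 1.585 and 2.574 without single embryos. Visceral endoderm and blood markers were also higher at E5.0, and their part in these falls was not tested.

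Zinc finger genes numbered Zfp900 to Zfp999, likewise listed after values had been seen, gave 23 lower and 1 higher of 59, against 11.6% and 10.2% over all genes. Zfp980 was at 321, 258 and 409 CPM at E5.0, at 224, 165 and 175 CPM at E5.5 and at 16.5, 11.8 and 24.3 CPM at E6.0 (-4.23 ± 0.29, adjusted p 1.52e-05), and Zfp978 fell by 4.31 on the log2 scale. Both were above the midpoint at E5.5 (adjusted p 0.0345 and 0.00221). The genes are close copies, so reads between them are uncertain. Dppa4, the partner of Dppa2, also fell late, from 89.7, 74.9 and 85.6 CPM through 60.5 to 90.2 CPM to 13.8, 14.6 and 18.6 CPM (-2.41 ± 0.18, adjusted p 1.19e-06).

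Of 8 germ cell genes 1 was higher and 2 lower, against 10.2% and 11.6% over all genes. Kit, the receptor for stem cell factor, rose from 10.9, 4.91 and 3.74 CPM to 29.4, 19.6 and 18.7 CPM (1.77 ± 0.41, adjusted p 0.00815, edgeR, and 2.41 without E5.0 embryo 1). Ifitm3, which is also on the interferon list, fell from 21.5, 12.9 and 25.5 CPM to 3.84, 3.05 and 3.99 CPM (-2.47 ± 0.32, adjusted p 9.92e-05). Dazl, an RNA-binding protein of the germ line, was at 2.62, 14.4 and 9.25 CPM at E5.0, at 6.34 to 13.4 CPM at E5.5 and at 0.959, 0.783 and 1.17 CPM at E6.0 (-3.15 ± 0.58, adjusted p 0.00155). Of 25 collagen genes 5 rose and 6 fell, against 10.2% and 11.6% over all genes. Their median log2 change was 0.62, and it reversed to -0.45 among genes with a mean of at least 5 CPM.

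On the X chromosome 94 of 452 tested genes were lower (20.8%) and 39 higher (8.63%), with a median log2 change of -0.32. On the autosomes 11.9% were lower and 11.6% higher, with a median of 0.01. Xist was at 785, 54.0 and 595 CPM at E5.0 and at 0.600, 876 and 780.0 CPM at E6.0, and its part in this difference was not tested.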
